A study of Mus musculus with 8 samples.

Results

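Aquaporins were examined in dermal fibroblasts sorted from young and old mice: Aqp1, Aqp3, Aqp4, Aqp5, Aqp7, Aqp9 and Aqp11. These 7 genes, of 17097 named on the array, were covered by 14 of its 45141 probe sets, each annotated to a single symbol, and for each gene the brightest probe set, averaged over the arrays, gave its value. They were chosen by the old-versus-young difference of Aqp1 in these same arrays, with the other family members beside it. Their age differences are therefore given as descriptions, and nothing is read from a test of them. The study compared 4 young mice (2 months old) with 4 old mice (18 months old), 1 array per animal, to ask how age alters the dermal fibroblast transcriptome. Cells came from collagenase-digested skin freed of its subdermis, and were sorted for Pdgfra and CD34 on the surface and against EpCam, CD31, CD24, CD117 and CD45. No treatment or genetic alteration is named for either group, and strain and sex are not given in the sources used here. Because each array measures RNA of a sorted population, more RNA per cell and a larger share of expressing cells cannot be told apart.

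Aquaporins are membrane channels through which water crosses the lipid bilayer along osmotic gradients. The aquaglyceroporins, Aqp3, Aqp7 and Aqp9 among the genes here, also carry glycerol and some other small neutral solutes, and Aqp11 belongs to an unorthodox branch found in intracellular membranes. In skin, Aqp3 is the main channel of basal keratinocytes, Aqp5 sits in sweat gland secretory cells and Aqp1 is prominent in the endothelium of dermal capillaries and in red blood cells.

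Fibroblast markers were measured above background on every array. All 10 fibroblast markers listed, Pdgfra and Cd34 among them, lay above every non-specific probe set on all 8 arrays, with Dcn, the proteoglycan decorin, the brightest (12.79 ± 0.02 in young and 12.70 ± 0.10 in old, log2 level, SD, n = 4 each). The array carries 23 NonspecificGC probe sets, which measure binding with no intended target, each named for a number of G and C bases. They spanned 3.15 to 7.82 on the log2 scale, and the richest in G and C was the brightest. Their mean was lower in every old array (4.18 to 4.43) than in every young array (4.50 to 4.65), a difference of -0.25 (exact 2-sided permutation p = 0.0286, the smallest that 4 against 4 arrays allow). Single sets differed by between -0.76 and 0.01.

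Aqp1, the classical water-selective channel, was low and even in young fibroblasts and high in old ones. Its log2 level in young replicates 1 to 4 was 5.29, 5.23, 5.08 and 5.25. In old replicates 1 to 4 it was 7.91, 8.16, 7.22 and 8.56. Every old mouse lay above every young mouse, and the gap between the lowest old and the highest young value was 1.93. Young mice averaged 5.21 ± 0.09 and old mice 7.96 ± 0.56 (SD, n = 4 each). Old minus young was thus 2.75 ± 0.23 on the log2 scale (SE), or 6.73-fold. The old mice differed among themselves by 1.34, the young mice by 0.21, with old replicate 3 the lowest of the old and old replicate 4 the highest. With the mean of the non-specific sets as a covariate the difference was 2.24.

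**Figure D1:**
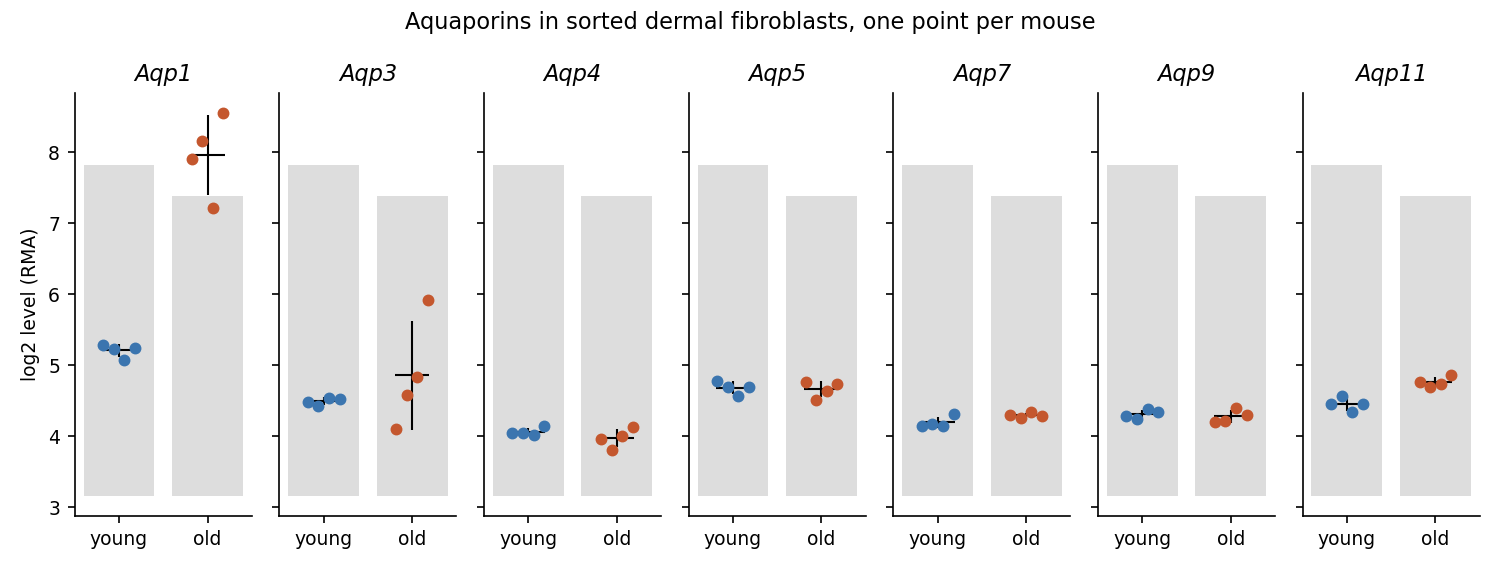
Log2 level of each aquaporin in the 4 young (blue) and 4 old (orange) mice, 1 point per array, with the mean and SD in black; the grey band runs from the lowest to the highest value of the NonspecificGC probe sets in that age group. Aqp1 separates the ages, from 5.08 to 5.29 in young to 7.22 to 8.56 in old, while the others stay within the grey band.

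Aqp1 in young fibroblasts lay within the range of non-specific binding, above 16 of the 23 non-specific sets on each young array. In old fibroblasts it lay above all 23 on 3 arrays and above 22 on old replicate 3, where the brightest non-specific set reached 7.38. It was the only one of the 7 aquaporins to pass all non-specific sets on any array. The base composition of the Aqp1 probes was not used here, so it is not known which of the non-specific sets is its proper match. Only 1 probe set with a single symbol was annotated to Aqp1, and probe sets with several symbols or none were not examined for it.

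The sequence before the start site is shown for the genes whose old values all exceeded the young ones, Aqp1 and Aqp11, and for Aqp3, whose old values scattered most. RefSeq promoter entries (GRCm38.p6) matched 6 of the 7 genes. The 250 bases before the start are printed 5′ to 3′ on the coding strand, at chr6:55336049-55336298 (plus strand) for Aqp1, chr7:97738248-97738497 (minus) for Aqp11 and chr4:41098184-41098433 (minus) for Aqp3. Capitals mark matches, on either strand, to a TATA box (TATAAA), GC box (GGGCGG), E-box (CANNTG), NFAT core (TGGAAA), AP-1 site (TGANTCA) or CACCC element (CACCC), and neighbouring capitals can belong to more than 1 match.
Aqp1: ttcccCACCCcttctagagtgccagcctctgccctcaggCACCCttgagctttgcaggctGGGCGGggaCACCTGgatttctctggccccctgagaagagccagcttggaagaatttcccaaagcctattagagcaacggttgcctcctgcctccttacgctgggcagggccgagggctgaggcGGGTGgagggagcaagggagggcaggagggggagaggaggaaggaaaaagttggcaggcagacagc
Aqp11: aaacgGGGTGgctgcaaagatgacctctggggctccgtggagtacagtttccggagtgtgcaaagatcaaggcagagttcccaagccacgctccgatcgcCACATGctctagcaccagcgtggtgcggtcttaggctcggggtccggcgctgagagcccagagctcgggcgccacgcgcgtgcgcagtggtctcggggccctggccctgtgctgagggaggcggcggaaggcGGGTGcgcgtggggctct
Aqp3: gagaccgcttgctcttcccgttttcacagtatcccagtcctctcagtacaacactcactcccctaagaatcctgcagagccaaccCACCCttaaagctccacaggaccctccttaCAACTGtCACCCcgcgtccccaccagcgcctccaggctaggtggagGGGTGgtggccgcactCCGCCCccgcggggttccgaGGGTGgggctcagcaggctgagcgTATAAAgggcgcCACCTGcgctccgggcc

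The 3 promoters differed in these elements. Aqp1 held a GC box whose first base lay at -190 from the start, an E-box at -181 and CACCC matches at -245, -211 and -66, without a TATA box match. Aqp3 held a TATA box match at -29, a GC box at -73, E-boxes at -135 and -17 and 4 CACCC matches. Aqp11 held an E-box at -150 and 2 CACCC matches. Neither the NFAT core nor the AP-1 letters occurred in these windows, and NFAT5, the factor of the osmotic response, binds a longer site of which the NFAT core is part. Among 32851 RefSeq promoters of the same length, 12.4% held the TATA box letters, 32.7% the GC box, 66.2% an E-box, 18.6% the NFAT core, 6.75% the AP-1 letters and 52% a CACCC element. G and C made up 62% of the Aqp1 window, 67.2% of that of Aqp11 and 64% of that of Aqp3, against a median of 52.4%. A match to such short letters is a description and not a binding site.

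Aqp3, the aquaglyceroporin of basal keratinocytes, was even in young mice and scattered in old ones. In young replicates 1 to 4 it measured 4.48, 4.43, 4.54 and 4.53 on the log2 scale. In old replicates 1 to 4 it measured 4.10, 4.58, 4.84 and 5.92. The groups overlapped, since old replicate 1 was the lowest array and old replicate 4 the highest. The log2 difference was 0.36 ± 0.30 (SE; 95% interval -0.32 to 1.05), and it was 0.01 without old replicate 4 and 0.88 with the mean of the non-specific sets as a covariate. The other Aqp3 probe sets also had their highest value in old replicate 4 (4.09 for probe set 1422008 and 4.77 for probe set 1450460), with log2 differences of 0.08 ± 0.09 and 0.00 ± 0.11 (SE).

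Keratinocyte markers moved with Aqp3 in the old mice. The list score, the mean of 10 measured markers after centring each on its own mean, was -0.14, 0.15, 0.53 and 1.09 in old replicates 1 to 4, the same order as Aqp3. In young replicates 1 to 4 it was -0.44, -0.87, 0.35 and -0.66, where Aqp3 spanned 0.11. Krt14, a keratin of basal keratinocytes, rose by 1.65 ± 0.30 on the log2 scale (SE; adjusted p = 0.00469) and Krt5, its partner, by 1.04 ± 0.30 (adjusted p = 0.0379). In all 3 of the 10 markers rose and 1 fell (Perp, 1.62, and Trp63, -0.41, being the others). Of all genes 9.87% were higher and 7.66% lower. Only Cdh1 of the markers stayed below the brightest non-specific set on all arrays. The mean log2 level of the list ran from 7.13 to 8.35 in young and from 7.86 to 9.09 in old. The part of keratinocyte RNA in the Aqp3 values was not tested.

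**Figure D2:**
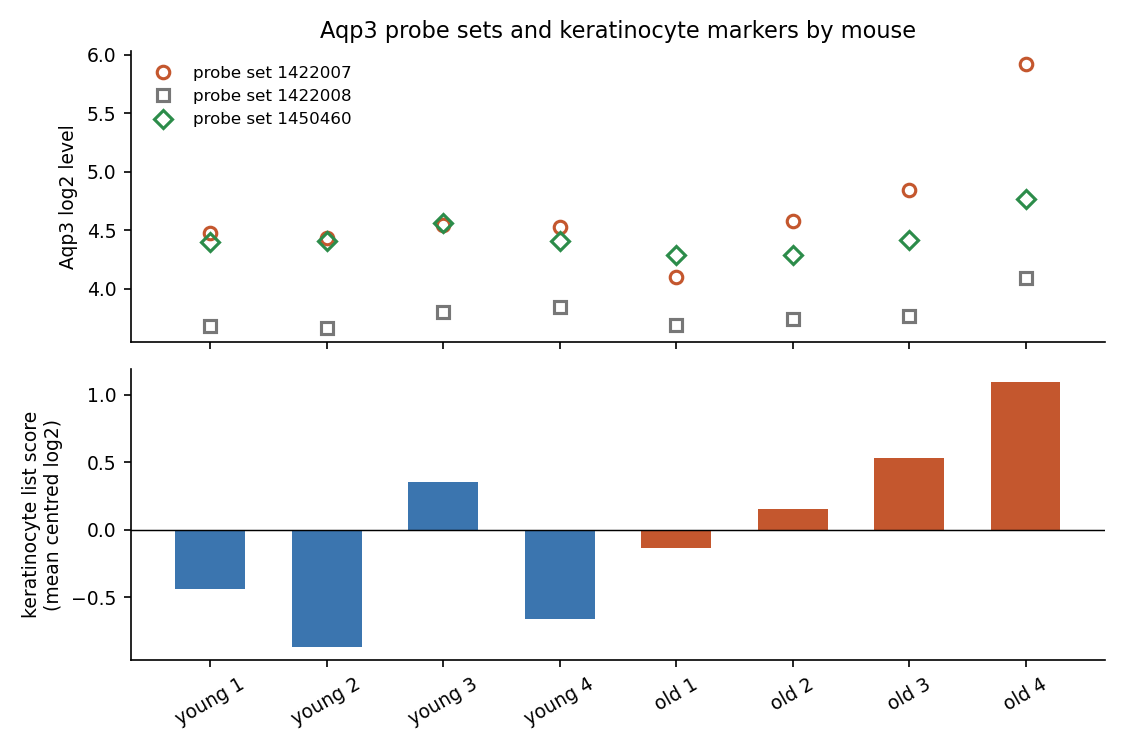
Upper panel, log2 level of the 3 Aqp3 probe sets on each array; lower panel, keratinocyte list score of the same arrays (mean of centred log2 levels, young in blue, old in orange). Old replicate 4 is highest in both panels (5.92 for probe set 1422007 and a score of 1.09).

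Aqp11, the intracellular member, was slightly higher in old mice by 1 of its 2 probe sets. Probe set 1447606, the brighter, measured 4.45, 4.57, 4.34 and 4.46 in young replicates 1 to 4 and 4.77, 4.69, 4.73 and 4.86 in old replicates 1 to 4. The groups did not overlap, but the gap between them was 0.12. The log2 difference was 0.31 ± 0.07 (SE), or 1.24-fold. By the other probe set, 1429254, the groups overlapped and the difference was 0.07 ± 0.08 (SE). Both lay within the range of non-specific binding, with 13 to 16 of 23 non-specific sets below the brighter one.

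The other aquaglyceroporins stayed near a constant level. Aqp7, which lets glycerol leave adipocytes, measured 4.15, 4.17, 4.15 and 4.31 in young and 4.30, 4.26, 4.34 and 4.29 in old replicates 1 to 4. Its difference was 0.10 ± 0.06 (SE; 95% interval -0.03 to 0.24), and the high young value of replicate 4 made the groups overlap. Aqp9, which takes glycerol into liver cells and is found in neutrophils, ran from 4.24 to 4.38 in young and from 4.20 to 4.40 in old. Its difference was -0.04 ± 0.07 (SE; 95% interval -0.18 to 0.11). Second probe sets of these genes differed by 0.05 and -0.04.

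The remaining water channels were as even. Aqp4, the channel of astrocyte end-feet and of skeletal muscle fibres, ran from 4.02 to 4.14 in young and from 3.81 to 4.13 in old, a difference of -0.09 ± 0.08 (SE; 95% interval -0.25 to 0.08). Its other probe sets differed by 0.00 and -0.04. Aqp5, the channel of secretory glands, ran from 4.57 to 4.78 in young and from 4.51 to 4.77 in old, a difference of -0.02 ± 0.08 (SE; 95% interval -0.19 to 0.15). Levels of Aqp4, Aqp5, Aqp7 and Aqp9 lay above 12 to 16 of the 23 non-specific sets on every array and never above all. At such levels these arrays cannot tell an absent transcript from a faint one, and differences are compressed.

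By limma, 2 of the 7 aquaporins had an adjusted p under 0.05, Aqp1 and Aqp11, both higher in old. Of all 17097 genes, 17.5% passed in either direction and 9.87% were higher. Of the called genes 56.3% were higher in old (1688 higher and 1310 lower), and 47% after a further quantile normalization (1490 higher and 1681 lower). The same 2 had groups that did not overlap, as had 21.3% of all genes, 11.7% with old above young and 9.66% with old below. Since the choice of the aquaporins used this contrast, nothing is read from these counts. The median difference was 0.10 over the 7 genes and 0.01 over all genes.

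**Figure D3:**
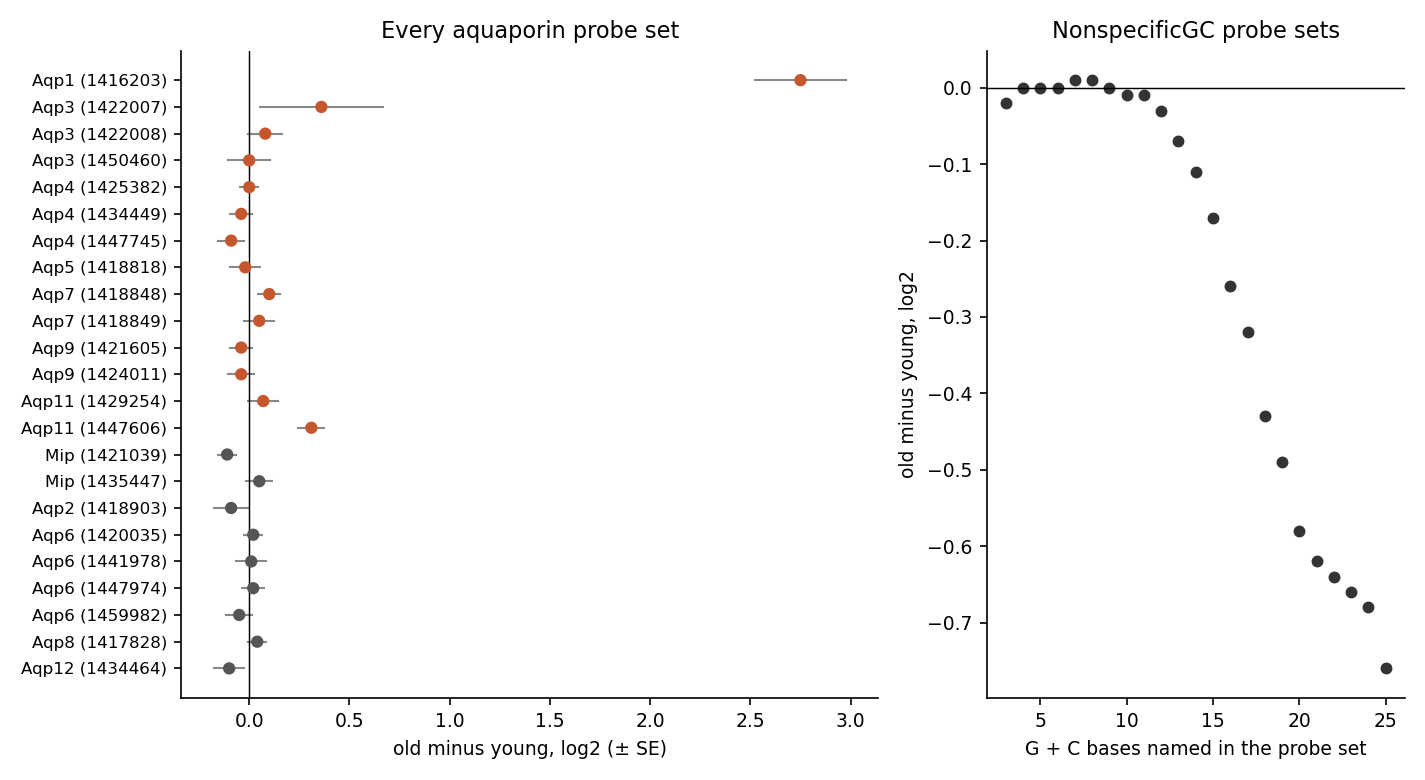
Left, old-minus-young log2 difference with its SE for every aquaporin probe set (orange, the 7 genes described; grey, the other aquaporins; probe set number in brackets). Right, the same difference for the NonspecificGC probe sets against their number of G and C bases. The Aqp1 set stands at 2.75, Aqp11 (1447606) at 0.31, and the non-specific sets fall to -0.76.

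None of the other mouse aquaporins on the array passed the test. These were Mip (the lens channel, also called Aqp0), Aqp2 and Aqp6 of the kidney, Aqp8 and Aqp12. By limma 0 of 5 were called, and 0 had an unadjusted p under 0.05. Mip had the smallest adjusted p (0.208), with a difference of -0.11 ± 0.05 (SE), and its 4 old values (4.84 to 4.87) lay below its 4 young values (4.92 to 5.03). Its second probe set, 1435447, overlapped between the ages and differed by 0.05 ± 0.07 (SE). Of all genes 17.5% were called, and 9.66% had all old values below all young ones. Aqp2, Aqp6, Aqp8 and Aqp12 differed by between -0.10 (Aqp12) and 0.04 (Aqp8), and none of the 5 passed all non-specific sets on any array. Aqp2, Aqp5 and Aqp6 follow each other in the RefSeq gene order with no protein-coding gene between them, as do Aqp7 and Aqp3.

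The genes next to Aqp1 showed no difference of its size. Of the 5 nearest measured protein-coding genes on each side, 1 rose, 1 fell and 8 did not pass, with log2 differences from -0.70 to 0.58. Of all genes 9.87% were higher and 7.66% lower. Mindy4, the immediate neighbour, rose by 0.26 ± 0.07 (SE; limma adjusted p = 0.0352) from 5.27 to 5.54, levels that no array raised above all non-specific sets. Gars, which charges tRNA with glycine, fell by 0.70 ± 0.07 on the log2 scale (adjusted p = 1.6e-04). Adcyap1r1, the receptor of the neuropeptide PACAP, differed by 0.58 ± 0.27 (SE; adjusted p = 0.189).

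The genes whose profile came closest to that of Aqp1 were Tcf24, Tmem176b, Tmem176a, Plscr4 and Ldhb. Likeness was the root mean square difference of the centred log2 values over the 8 arrays, among 15433 other genes. It was 0.28 for Tcf24, a bHLH transcription factor, 0.36 for Tmem176b and Tmem176a, 0.38 for Plscr4, a phospholipid scramblase, and 0.39 for the lactate dehydrogenase subunit Ldhb, against a median of 1.41. Tcf24 measured 4.36, 4.52, 4.13 and 4.38 in young and 6.96, 6.93, 6.86 and 7.25 in old replicates 1 to 4. It shared with Aqp1 the lowest young value in replicate 3 and the lowest and highest old values in replicates 3 and 4. The measure is dominated by the age step, and the old arrays of Aqp1 spread more than those of the other 5.

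**Figure D4:**
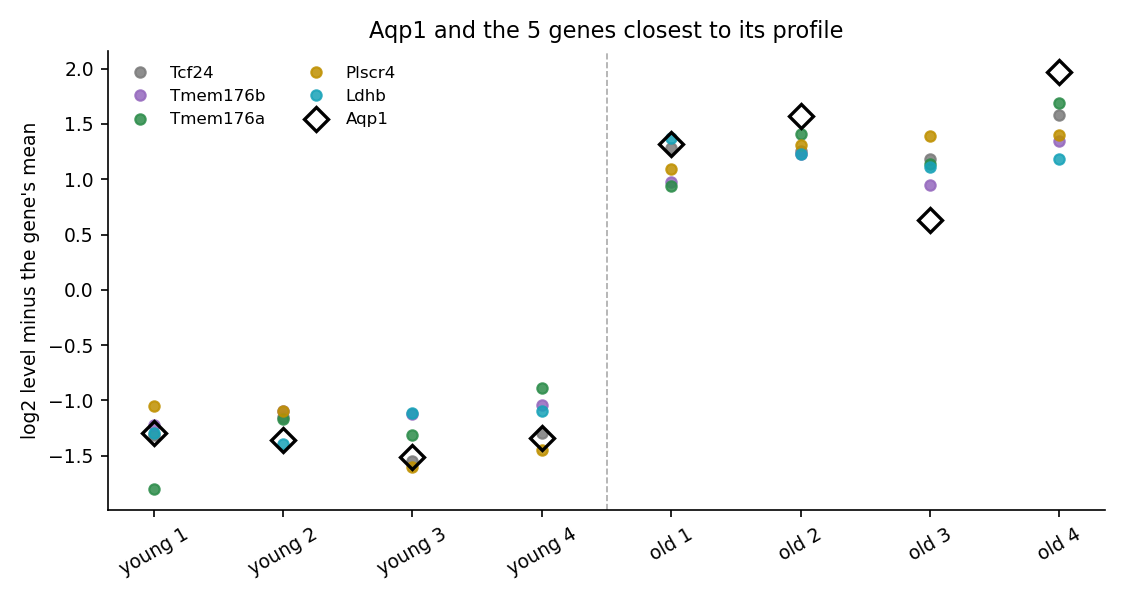
Log2 level minus each gene's mean over the 8 arrays for Aqp1 (open diamonds) and the 5 genes closest to it (filled circles), by mouse. All 6 genes are below 0 in the young and above 0 in the old mice, and Aqp1 is lowest among them in old replicate 3 and highest in old replicates 2 and 4.

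Genes that handle glycerol and triglycerides, the substrates linked to aquaglyceroporins, moved both ways. Of 20 listed genes 17 were measured, of which 4 rose, 2 fell and 11 did not pass, beside 9.87% of all genes higher and 7.66% lower. The list median was 0.06, against 0.01 for all genes. Mgll, which releases glycerol from monoacylglycerol, measured 6.51, 6.75, 6.64 and 6.21 in young and 7.54, 7.94, 7.44 and 7.06 in old replicates 1 to 4, and rose by 0.97 ± 0.18 (SE; limma adjusted p = 0.00454). Gpd2, the mitochondrial glycerol-3-phosphate dehydrogenase, rose by 0.58, the lipid droplet coat protein Plin2 by 0.44 and the phosphatidate phosphatase Lpin1 by 0.43 on the log2 scale. Its relative Lpin3 fell from 7.48 ± 0.07 to 6.37 ± 0.14 (SD, n = 4 each), by 1.11 on the log2 scale (adjusted p = 2.8e-05), with no overlap between the ages. Lpin3 passed all non-specific sets on 0 of the 8 arrays. The non-specific sets of 22 to 25 G and C bases themselves differed by -0.64 to -0.76. Mgll, Gpd2 and Lpin1 passed all non-specific sets on the 4 old arrays only. The second gene that fell, G0s2, an inhibitor of the lipase Pnpla2, is outside the rule for named genes and was added after its value (-0.43) was seen. Lpin1 lost its call without any of 6 single arrays (adjusted p up to 0.102), and with the non-specific background as a covariate only Lpin3 of the list stayed called (difference -0.89, adjusted p = 0.031). With that covariate Mgll differed by 0.84, Gpd2 by 0.27, Plin2 by 0.15 and Lpin1 by 0.01.

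Of the genes of the osmotic response and cell volume, Slc6a6, the taurine carrier, changed most. It measured 6.28, 6.72, 5.95 and 6.65 in young and 7.59, 8.47, 8.34 and 8.42 in old replicates 1 to 4. The ages did not overlap, and the log2 difference was 1.80 ± 0.22 (SE; 3.49-fold, limma adjusted p = 5.3e-04). Of 21 measured genes of 25 listed, 4 rose, 1 fell and 16 did not pass, beside 9.87% of all genes higher and 7.66% lower. The list median was 0.03. The chloride transporter Clcn3 rose by 0.37, the kinase Sgk1 by 0.33 and Wnk1, a kinase that responds to cell volume, by 0.30 on the log2 scale. The potassium chloride cotransporter Slc12a4 fell by 0.36. Nfat5, the transcription factor of the osmotic response, differed by 0.19 ± 0.12 (SE; adjusted p = 0.315), the inositol carrier Slc5a3 by -0.16 ± 0.31 (adjusted p = 0.789) and the betaine carrier Slc6a12 by 0.01 ± 0.07 (adjusted p = 0.911). Lrrc8a, the required subunit of the volume-regulated anion channel, differed by 0.02 ± 0.06 (adjusted p = 0.858). These last 4 were named after their values were seen. Sgk1 lost its call without young replicate 2 (adjusted p = 0.052), and none of the list was called by limma with the background covariate (2 at an unadjusted p under 0.05), when Slc6a6 differed by 2.13 (adjusted p = 0.069).

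The dystroglycan complex, which anchors Aqp4 at the membrane of muscle and glia, was measured well above background in part, while Aqp4 stayed within non-specific binding. Of its genes 7 lay above all non-specific sets on all 8 arrays. Of 15 listed genes 14 were measured, of which 2 rose and 12 did not pass, beside 9.87% of all genes higher and 7.66% lower. The list median was 0.02. Agrn, the extracellular ligand agrin, measured 7.43, 7.48, 7.46 and 7.83 in young and 8.65, 8.69, 8.57 and 8.86 in old replicates 1 to 4. It rose by 1.14 ± 0.10 (SE; limma adjusted p = 9.3e-05), with all old values above all young ones. Utrn, the dystrophin relative utrophin, rose by 0.27 ± 0.07 (adjusted p = 0.0277), a call lost without any of 6 single arrays (adjusted p up to 0.0776). Dag1, dystroglycan itself, was the brightest, at 11.51 in young and 11.36 in old (difference -0.15 ± 0.06, adjusted p = 0.0967). With the background covariate 0 genes of the list were called by limma (2 at an unadjusted p under 0.05), Agrn differing by 0.98 (adjusted p = 0.0683).

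**Figure D5:**
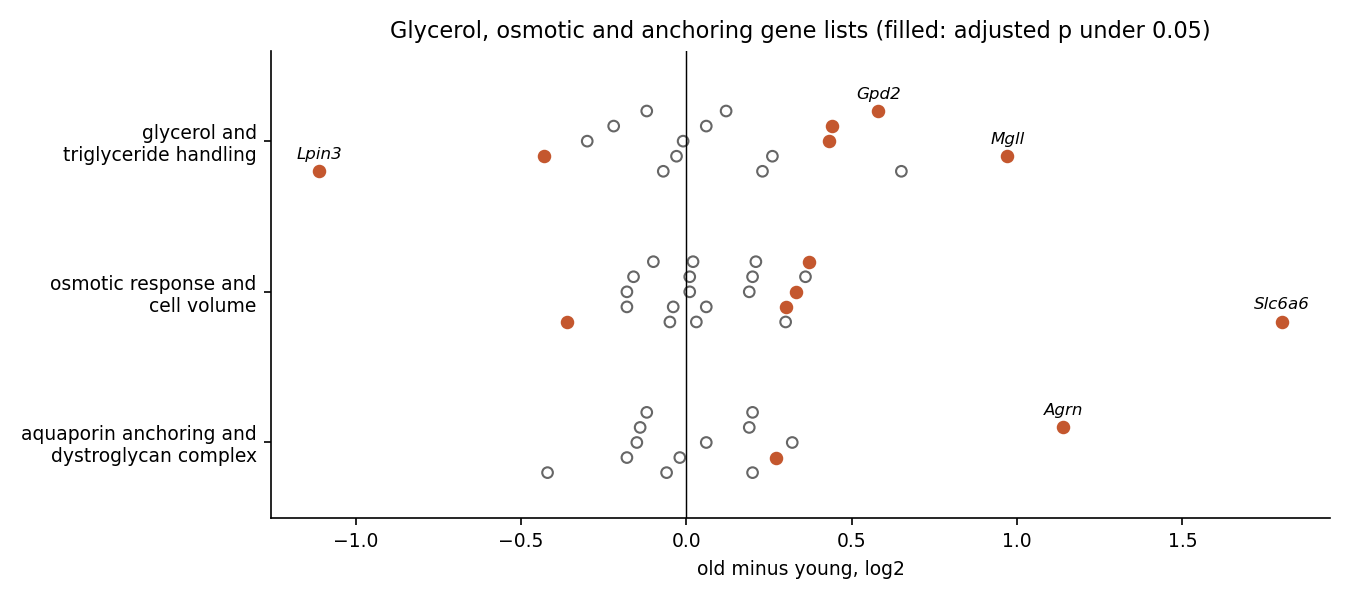
Old-minus-young log2 difference of each measured gene of the glycerol, osmotic and anchoring lists, filled where the limma adjusted p is under 0.05; vertical placement within a list only separates points. Slc6a6 (1.80) and Agrn (1.14) lie farthest to the right and Lpin3 (-1.11) farthest to the left.

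Markers of other cell types known to express aquaporins were mostly within non-specific binding. Of 15 endothelial markers, 13 never passed all non-specific sets, and 3 rose (Tek, Flt1 and Tie1) and 2 fell (Egfl7 and Plvap). Of all genes 9.87% were higher and 7.66% lower. Tek, an angiopoietin receptor, rose by 1.73 ± 0.24 (SE; limma adjusted p = 0.00111) and passed all non-specific sets on 4 arrays. Kdr, the brightest of the list, passed them on 7 arrays and differed by 0.14 ± 0.42 (SE; limma adjusted p = 0.869). The defining genes Pecam1 (0.37, adjusted p = 0.294) and Cdh5 (0.10, adjusted p = 0.527) were not called. The mean level of the endothelial list ran from 4.90 to 5.03 in young and from 4.89 to 5.26 in old. Its score was -0.17, -0.04, -0.08 and -0.06 in young replicates 1 to 4 and -0.18, 0.16, 0.19 and 0.17 in old replicates 1 to 4. In this score old replicates 2 to 4 lay above every young array and old replicate 1 beside the lowest young one. The erythroid list scored -0.14, 0.09, -0.14 and -0.05 in young and -0.31, 0.29, 0.06 and 0.21 in old replicates 1 to 4, so the ages overlapped. It had 0 of 6 measured markers called by limma (2 at an unadjusted p under 0.05), with levels of 5.07 to 5.30 in young and 4.91 to 5.51 in old. Hba-a1, a haemoglobin chain, was its brightest (difference 0.14, adjusted p = 0.76) and Klf1 its largest difference (1.01, adjusted p = 0.259). The part of endothelial and erythroid RNA in the Aqp1 values was not tested.

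Pericyte and smooth muscle markers stood apart by age in their list score, as Aqp1 did in its level. The score ran from -0.23 to -0.16 in young and from 0.03 to 0.53 in old. Among the old it was highest in replicate 3, where Aqp1 was lowest (7.22). Of 6 measured markers, 1 rose (Kcnj8, 0.64, limma adjusted p = 0.0429), beside 9.87% of all genes, and Rgs5 differed by 1.20 (adjusted p = 0.0696). Kcnj8, Notch3, Myh11 and Des each overlapped between the ages, and Des differed by -0.18. Rgs5, a regulator of G protein signalling, measured 4.86, 4.95, 6.93 and 4.96 in old replicates 1 to 4. Without old replicate 3 it differed by 0.70 (limma adjusted p = 0.00433). That array was left out after its high value was seen, so nothing is read from this p. Without Rgs5 the list scores ran from -0.17 to -0.10 in young and were 0.03, 0.07, 0.22 and 0.18 in old replicates 1 to 4, an alternative chosen after seeing the data. Mean levels ran from 5.67 to 5.74 in young and from 5.93 to 6.44 in old, and 4 of the 6 never passed all non-specific sets. The fibroblast list score also stood apart by age, in the other direction, from 0.02 to 0.15 in young and from -0.10 to -0.02 in old. The part of pericytes and smooth muscle cells in the Aqp1 values was not tested.

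Other marker lists were at low levels. None of the measured adipocyte (6), skeletal muscle (8), sweat gland (7), neutrophil (7) or Schwann cell (3) markers passed all non-specific sets on any array. By limma 1 sweat gland gene, Krt8, fell (by 0.47 on the log2 scale, adjusted p = 0.00166), and 0 of the adipocyte, muscle, neutrophil and Schwann markers were called (1 neutrophil marker, and none of the other 3 lists, at an unadjusted p under 0.05). Krt7, Acvr1c, Adig, Mylpf, Tnnt3, S100a9, Mpo, Sox10 and S100b, also taken by the rule for named genes, were not called (differences from -0.12 to 0.33). Of 8 macrophage markers 1, Lyz2, rose and 1, Csf1r, fell by 1.92 (adjusted p = 5.9e-06), and of 10 fibroblast markers 1, Col3a1, fell. Col1a2, the fibroblast marker of largest difference, differed by -0.56 ± 0.19 (SE; limma adjusted p = 0.0772). Of all genes 9.87% were higher and 7.66% lower. Perp, Trp63, Flt1, Tie1, Egfl7, Plvap, Notch3, Myh11, Des, Lyz2 and Col3a1 were named here after their values were seen.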

How the data were processed

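Each of 8 arrays (4 young, 4 old mice) measured total RNA of one animal's sorted fibroblasts, amplified for 18 cycles per the labels' protocols. The authors deposited log2 probe set levels, made with RMA and the affy package per the submitters' processing notes. RMA equalises array distributions, so a shift common to most transcripts is lost, and differences near background come out too small. No genome build is given in the sources used here, and gene names come from the platform annotation: 28898 probe sets had 1 symbol, 551 several and 15692 none. Age groups were set against each other in limma 3.58.1 (R 4.3.3; 2-sided moderated test of lmFit and eBayes with age as the only term). P-values were adjusted by Benjamini-Hochberg across the 17097 genes and called under 0.05. Adjusted p-values are from that test unless the sentence names another fit, such as a covariate, a block, another scaling or an array left out. The test was also run on simulated data with noise drawn independently for each gene and array. That setting lacked the background difference of these arrays. Each p rests on the spread between 4 animals per age, whose number limits the precision.

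The aquaporins, gene lists and marker lists were chosen with earlier results of these data known. The rule for named genes took all aquaporins, up to 5 called genes of largest difference and the brightest gene of each list, the brightest and the most changed marker, and the 5 genes closest to Aqp1; other names are marked, or serve as defining markers. List genes that had no single-symbol probe set were not analysed here. Alternatives were a replicate block, 2 scalings, a filter on dim genes, 2 other ways to choose probe sets, a covariate for non-specific background, trend and robust settings, array weights, a stricter threshold and leaving out each array. The labels do not say whether the replicate number ties a young to an old mouse, so the replicate block was an alternative only. Same-numbered young and old arrays deviated from their group means with correlations of 0.29, 0.05, -0.04 and 0.22. Arrays of different number had correlations from -0.26 to 0.21. Whether the numbers mark pairs was not tested.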

Additional observations from a re-analysis of the deposited data

Results flagged for a closer look

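Among 50 age groups of 4 arrays examined, 5 held an array set far from the other 3, and chance alone gives about 1 in 20. The groups were those of all aquaporins and of the named genes of the glycerol, osmotic and anchoring lists, without the marker lists. Young replicate 4 was the highest young array for Aqp4 (4.14, next 4.04), Aqp7 (4.31, next 4.17) and Agrn (7.83, next 7.48). Young replicate 3 was highest for Aqp12 (4.57, next 4.37). Old replicate 1 was lowest for Slc6a6 (7.59, next 8.34). These gaps took 0.83, 0.88, 0.87, 0.83 and 0.85 of the range of their groups. Among the marker genes, not examined in this way, Rgs5 measured 6.93 in old replicate 3 and 4.86 to 4.96 in the other old arrays. Kdr measured 6.02 in young replicate 1 and 7.81 to 7.89 in the other young arrays.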

How the results depend on the processing

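The covariate for non-specific background changed most. It took the Aqp1 difference from 2.75 to 2.24, that of Aqp3 from 0.36 to 0.88 and that of Aqp9 from -0.04 to 0.11, the genes called from 1688 higher and 1310 lower to 73 and 98, and the called genes from 6 to 1 in the glycerol list, from 5 to 0 in the osmotic list and from 2 to 0 in the anchoring list. This covariate is lower in every old array, so it and age can hardly be separated in 8 arrays. Averaging the probe sets of each gene, the Aqp11 difference was 0.19, since its second probe set differed less. At a threshold of 0.01, 771 genes were higher and 665 lower, with 3 called in the osmotic list and 1 in the anchoring list, and after a further quantile normalization 1 was called in the anchoring list. With arrays left out in turn, Aqp1 differed by 2.55 to 3.00, Aqp3 by 0.01 to 0.62, Aqp4 by -0.14 to -0.03, Aqp5 by -0.06 to 0.03, Aqp7 by 0.09 to 0.14, Aqp9 by -0.08 to -0.01 and Aqp11 by 0.27 to 0.35. The genes called then ran from 1215 to 1709 higher and from 983 to 1219 lower, and the called genes from 4 to 7 in the glycerol list, from 4 to 5 in the osmotic list and from 1 to 2 in the anchoring list. With the replicate number as a block, 1838 genes were higher and 1268 lower, and 8, 6 and 3 genes of the 3 lists were called; Lpin1 lost its call (adjusted p = 0.0688). Lpin1 also lost it after median centring (0.0735), after quantile normalization (0.0696) and with array weights (0.059), and Utrn after quantile normalization (0.0867). The filter on dim genes left 1 of the 7 aquaporins, Aqp1. Signal over background limits all the others.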
